A study of Homo sapiens with 9 samples.

Results

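Red cell membrane, heme and iron genes were followed through ATAC-seq peak lists of K562 cells with and without a mutation of STAG2. The set holds 39 of the 19748 protein-coding genes with a start site on chromosomes 1 to 22 and X. Its members were named from what their products do, with earlier results of these data known. A peak was assigned to a member when its centre lay inside the gene or at most 10 kb outside it. K562 is a human chronic myeloid leukaemia line with erythroid and megakaryocytic features. ATAC-seq maps open chromatin through the insertion of sequencing adapters by the Tn5 transposase. The study compared 3 genotypes with 3 libraries each: the parental wild type cells, 1 line heterozygous for STAG2 R614*, and 1 line homozygous for it, both made by CRISPR-Cas9 editing. The STAG2 protein is part of cohesin, a ring-shaped complex that holds chromatin loops, and R614* puts a stop codon in place of an arginine.

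The homozygous cells grew adherent and were lifted with trypsin, per the labels, so genotype, cell line and adherent growth cannot be told apart. Nothing in the labels says that the replicates came from separate cultures, and p-values then measure only the spread between these libraries. Each library is a bulk sample, so fewer cells with an open site and less opening per cell cannot be told apart. The mutated base cannot be read from peak lists, and genotypes are those of the labels, where the homozygous samples are titled STAG2nullA.

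Red cells take their shape and strength from a spectrin and actin skeleton that is tied to the membrane through ankyrin, band 3 and the glycophorins, and several of these membrane proteins carry blood group antigens. Heme is built by a chain of enzymes that begins and ends in mitochondria, with iron delivered by transferrin receptors and stored in ferritin. Many of these genes are bound by GATA1, TAL1 and KLF1 in erythroid cells, at promoters and at distal elements that lie upstream or in introns.

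For 4 of the sites that carry contrasts described further on, the sequence is shown so that it can be read beside the values. Each stretch comes from the GRCh37 reference genome, plus strand, and covers up to 300 bases around the midpoint of the merged region, without any bases of a UTR. Capitals mark matches to GATAA (GATA factors), TGACTCA (AP-1), TGTGGT (RUNX) or the CTCF core on either strand, and a stretch all in lower case held none of them. The TMOD1 site was chosen after its values had been seen. The ACKR1 site, chr1:159183991-159184290, lies downstream of the gene and was lost among the strong peaks of the homozygous libraries. The GYPC site, chr2:127408635-127408934, upstream of its gene, was missing there too, and was absent or very low in rank in the heterozygous libraries. The EPB41 promoter stretch, chr1:29213414-29213602, beside a start site of its gene, appeared among the strong peaks of the homozygous libraries. The TMOD1 stretch, chr9:100263582-100263881, lies in an annotated intron beside a start site and ranked higher in the homozygous libraries.
ACKR1 downstream: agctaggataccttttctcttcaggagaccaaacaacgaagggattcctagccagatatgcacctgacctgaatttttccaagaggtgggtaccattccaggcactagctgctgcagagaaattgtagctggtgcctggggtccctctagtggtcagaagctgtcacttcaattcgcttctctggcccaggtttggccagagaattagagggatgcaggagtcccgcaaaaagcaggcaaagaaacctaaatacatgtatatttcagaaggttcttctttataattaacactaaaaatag
GYPC upstream: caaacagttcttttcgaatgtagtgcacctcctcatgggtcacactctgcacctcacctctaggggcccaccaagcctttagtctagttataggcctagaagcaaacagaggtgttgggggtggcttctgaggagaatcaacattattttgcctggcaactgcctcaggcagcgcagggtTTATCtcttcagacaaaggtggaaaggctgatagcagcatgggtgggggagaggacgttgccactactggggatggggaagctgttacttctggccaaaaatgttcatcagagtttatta
EPB41 promoter: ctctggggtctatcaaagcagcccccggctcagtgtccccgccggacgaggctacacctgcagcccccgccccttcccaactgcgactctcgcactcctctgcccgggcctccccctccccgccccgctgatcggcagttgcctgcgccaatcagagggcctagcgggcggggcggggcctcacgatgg
TMOD1 promoter: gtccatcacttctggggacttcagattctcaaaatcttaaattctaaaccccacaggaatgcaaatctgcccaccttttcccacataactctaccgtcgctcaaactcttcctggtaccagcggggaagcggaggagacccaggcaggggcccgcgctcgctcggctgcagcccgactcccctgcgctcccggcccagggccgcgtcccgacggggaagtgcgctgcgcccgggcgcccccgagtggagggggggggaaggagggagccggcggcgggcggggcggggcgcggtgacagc

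The GYPC stretch held 1 GATAA match and the other 3 stretches held none, and CCNCNCCC matched 6 times in the EPB41, 5 times in the TMOD1 and 3 times in the GYPC stretch. Across all member regions, GATAA occurred in 27 of 75 promoter regions (36%), against 14.9% of all 14545 promoter regions. Those 75 include 22 promoters of other genes that lie in the members' windows. GATAA occurred in 77 of 147 distal regions (52.4%), against 40.4% of all 91333 distal regions, each in a window of 300 bases. Member promoter regions were less rich in G and C, with a median of 61.7% against 66.3% over all promoter regions, while distal regions had 48.3% against 47.7%. The share of member distal regions with TGACTCA was 18.4% against 14.9% over all distal regions, with TGTGGT 20.4% against 24.1%, with CCNCNCCC 34% against 33.5% and with the CTCF core 4.08% against 7.14%. CANNTG was found in 80.3% of member distal regions and 80.7% of all. A match is a description of letters and not a binding site.

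The 9 lists held 181579 to 319986 intervals, and their read depth is unknown because peak lists carry no counts of reads. To put libraries on 1 footing, each library was reduced to its 50000 strongest peaks by −log10 p, and a peak's strength is given as its percentile among them, with 100 for the strongest and 0 where the library had no such peak. Some lists overlapped more than others. Wild type replicate 3 and heterozygous replicate 1 had 46.0% of the shorter list's intervals in common at identical start and end, and 31.3% of those at the member genes. Wild type replicates 1 and 2 shared 23.2%, and 11.7% at the member genes. Heterozygous replicates 2 and 3 shared 1.17%, and the other 33 pairs 0.223% to 0.350%. Counted as sources, the lists come to 7, with 3 homozygous and 4 others. Homozygous lists placed fewer of the 50000 peaks on chromosome 1, with 10.3% against 10.9% in wild type, and on chromosome 14, with 2.28% against 2.69%, and more on chromosome 19, with 3.10% against 2.51%.

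Markers of the labelled line were open to different degrees. The 8 genes listed for K562, of which RHAG, HEMGN and GYPC are themselves members, held 25 to 31 peaks per library. Their promoters had a peak in all 9 libraries at TAL1 and RHAG, in 8 at NFE2 and HEMGN, in 7 at LYL1 and GYPC and in 5 at LMO2. The GATA1 promoter had none among the 50000 strongest, although 8 full lists had one there and 3 or 4 peaks per library lay at the gene. None of the 4 lymphoid and 2 liver promoters had a peak among the 50000 strongest of any library. By the same measure, CSF3R among 3 myeloid genes had one in 1 library, and the fibroblast gene COL1A1 had one in all 9, while COL3A1 had none. In the full lists the lymphoid gene CD79A had a promoter peak in 2 libraries and CSF3R in 3. Summed peaks per library were 5 to 8 at the lymphoid genes, 4 to 6 at the myeloid, 1 to 3 at the fibroblast and 1 at the liver genes.

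The member genes held between 127 and 150 of the 50000 strongest peaks of a library, and 265 to 398 peaks of the full lists. The median member held 3.22 peaks per library, against 1.89 over all genes tested. Promoters, defined as sites within 1 kb of a start site, were open at most members. A promoter peak stood in all 9 libraries at 22 of 39 members (56.4%), against 45.7% of all genes. The members without one in any library were the band 3 gene SLC4A1, EPB42, ALAS2, FECH and AHSP, of which a weaker promoter peak was found in 9 full lists for FECH, 7 for EPB42, 5 for ALAS2, 4 for AHSP and 0 for SLC4A1. Merged over libraries, the member peaks formed 222 regions of 105878, of which 75 were promoter regions and 147 distal. Of the promoter regions, 53 lay at a member's own promoter and 22 at the promoter of another gene in the window. Among the distal regions, 36 (24.5%) were present in all 9 libraries, against 12.1% of all distal regions. Only 31 (21.1%) were in 1 library, against 33.6%. At promoter regions the order was the other way, with 39 of 75 (52%) in all 9 libraries against 56.2%. The share was 26 of 53 (49.1%) at the members' own promoters and 13 of 22 (59.1%) at those of other genes.

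**Figure D1:**
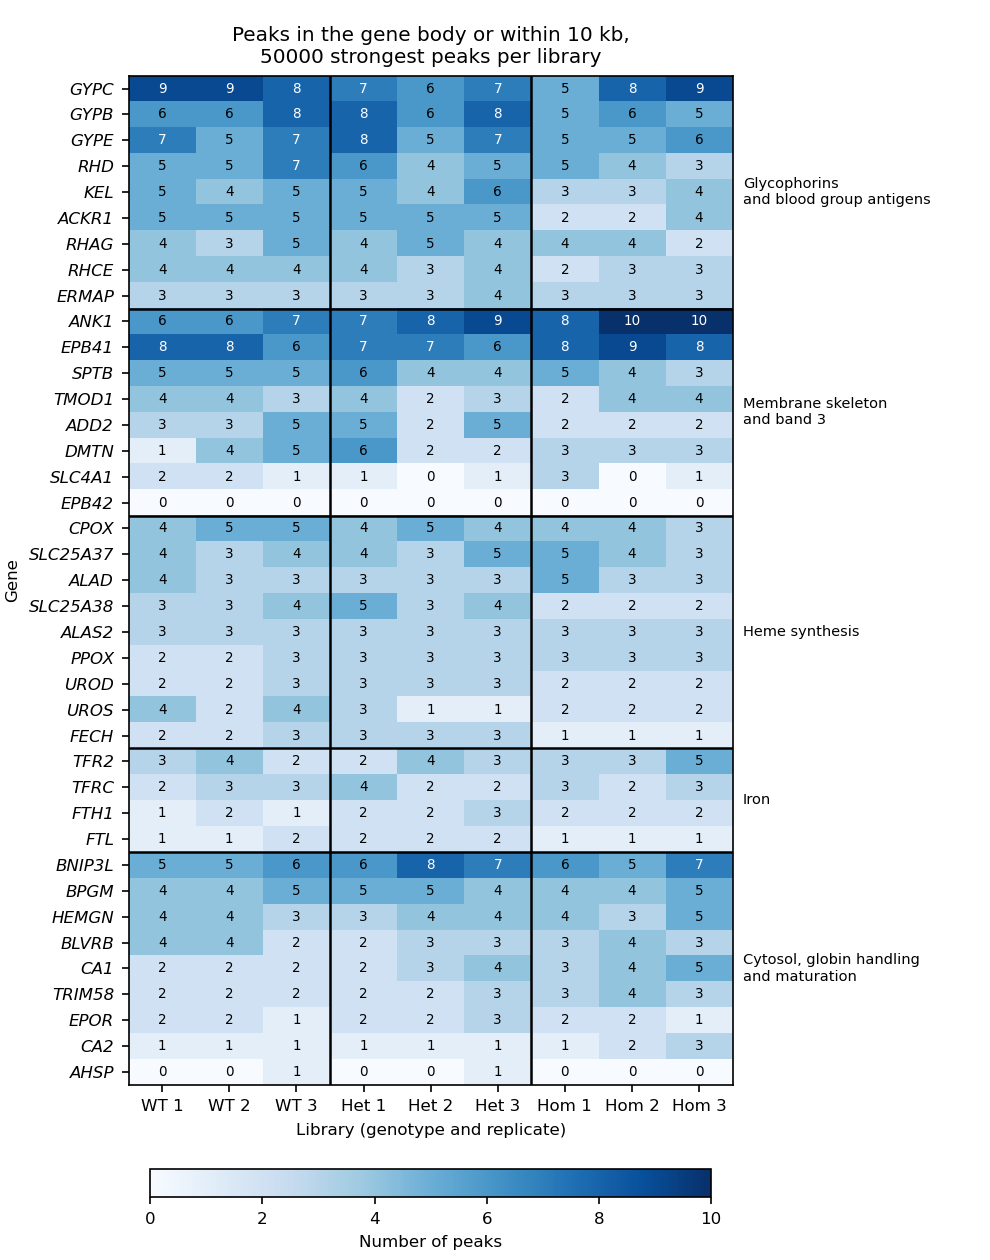
Number of peaks inside or at most 10 kb outside each of the 39 genes (vertical axis, by role) in each of the 9 libraries (horizontal axis, WT, wild type; Het, heterozygous; Hom, homozygous), from the 50000 strongest peaks of a library. Each cell prints its count, from 0 to 10. ACKR1 had 5 peaks in all 6 wild type and heterozygous libraries and 2, 2 and 4 in the homozygous ones, and EPB42 had none anywhere.

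Each library held 39 to 47 peaks at the members' own promoters. The means of the wild type, heterozygous and homozygous libraries were 43 ± 2.65, 43.3 ± 4.04 and 43.3 ± 2.52 (SD, n = 3 each). Peaks at promoters of other genes in the same windows had means of 17.3 ± 1.53, 17.7 ± 0.577 and 16 ± 1 (SD, n = 3 each). Distal peaks numbered 78, 72 and 87 in wild type replicates 1 to 3, 88, 75 and 84 in the heterozygous and 69, 68 and 77 in the homozygous libraries. Their means were 79 ± 7.55, 82.3 ± 6.66 and 71.3 ± 4.93 (SD, n = 3 each), and the groups overlapped. In the full lists the order of wild type and homozygous turned, with 227 ± 20.6, 197 ± 19.7 and 239 ± 57.7 distal peaks (SD, n = 3 each). Homozygous replicate 3, which has the longest list, held 306 of them. Peak numbers at these genes were therefore not separated by genotype beyond the spread between libraries.

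Gene by gene, the number of peaks was compared across the 3 genotypes by an exact permutation test over the 280 distinct assignments of the libraries, with Benjamini-Hochberg adjustment over all 18206 genes that had a peak. No member passed at an adjusted p of 0.05, and neither did any gene (0% of those tested). The smallest exact p the design allows is 0.00357, and an adjusted call would need 1301 genes at that value, where 30 reached it. Unadjusted exact p-values fell under 0.05 for 2 of the 38 members tested, against 7.94% of all genes. Those 2 were ACKR1 and FECH, both with fewer peaks in the homozygous libraries. For the percentile of the strongest promoter peak, 0 of 34 members and 0% of the 13756 genes tested passed after adjustment, with a lowest adjusted exact permutation p of 0.296. An adjusted call would need 983 genes at the smallest p, where 166 reached it. For single regions it would need 7563, where 796 reached it. Unadjusted, 3 of 34 members fell under 0.05 for the promoter percentile (TMOD1, ERMAP and TRIM58), against 13.7% of all genes. For single regions the adjusted count was again 0 of 222 and 0% of all 105878, and 26 member regions (11.7%) fell under 0.05 unadjusted, against 10.6% of all regions. Of these 26 regions, 15 had a lower and 11 a higher mean percentile in the homozygous than in the wild type libraries. The members' shares thus lay near or below the background in each of these tests. All of them treat the 9 lists as exchangeable, although some lists share many intervals. Counted as 7 sources, with the homozygous sources set against all others, the smallest exact p possible is 0.0286. Lower exact p-values, here and below, were reached only with sharing lists taken as separate libraries. Wild type SDs with n = 3 likewise include lists that share intervals.

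A region was said to separate genotypes when it was among the 50000 strongest peaks in each of the 3 libraries of one and in 0 of the other. For 3 libraries against 3 no exact p can fall below 0.1, so these counts carry no test. Between homozygous and wild type, 13 of the 222 member regions separated the genotypes. Present only in homozygous libraries were 1 of 75 promoter regions (background 1.45%) and 2 of 147 distal regions (background 2.58%). Present only in wild type libraries were 3 promoter regions (4%, background 1.15%) and 7 distal regions (4.76%, background 3.43%). Of these promoter regions, 1 was that of LLCFC1, a gene in the KEL window that is not a member, and the others lay at ADD2 and SPTB. Between heterozygous and wild type, none of the member regions separated the genotypes. The backgrounds for that pair were 0.151% of promoter and 0.327% of distal regions in heterozygous libraries only, and 0.179% and 0.422% in wild type libraries only. Without wild type replicate 3 and heterozygous replicate 1, the lists that share most intervals, 28 member regions separated 2 libraries from 2, against 11.7% of all regions. That rule is looser than 3 against 3, and the wild type lists left, replicates 1 and 2, also share intervals. The effect of the sharing on the count was therefore not tested. Between homozygous and heterozygous, 1 promoter region was present only in the homozygous libraries (background 1.47%) and 0 distal regions were (background 3.15%). Only in the heterozygous libraries were 1 promoter region (background 1.25%) and 7 distal regions (4.76%, background 3.46%). The direction of this last comparison depended on the list length, with 1 region higher and 8 lower in homozygous libraries here, 3 and 13 with the 100000 strongest peaks, 3 and 1 with the 20000 strongest, and 14 and 6 in the full lists. In all, 17 different regions separated some pair.

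**Figure D2:**
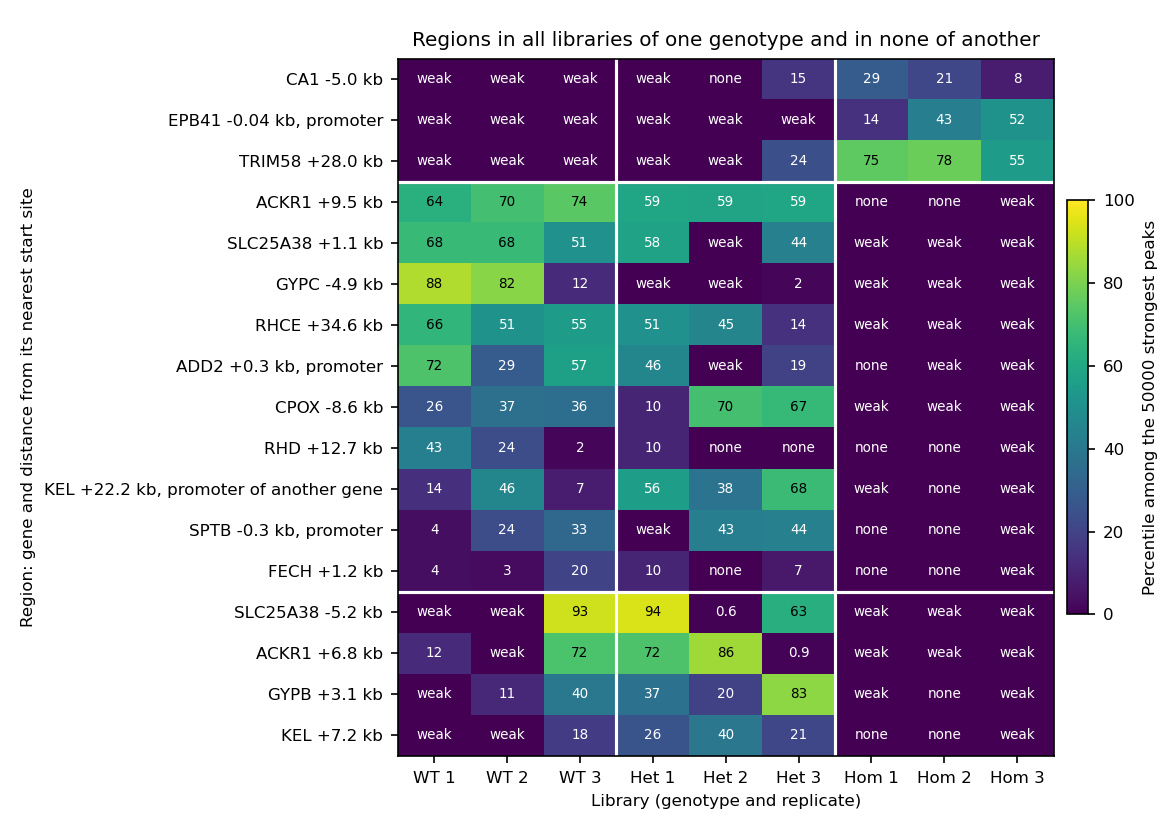
Percentile among the 50000 strongest peaks (colour and printed number, 0 to 100) of the 17 regions that separated a pair of genotypes, in the 9 libraries. Regions are named by gene and distance from the gene's nearest start site. The word weak marks a library with a peak only further down its full list, and none marks a library without any. The top 3 regions were strong only in homozygous libraries and 1 heterozygous library at most, and the others were absent from the strong peaks of all 3 homozygous libraries.

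These absences were from the 50000 strongest peaks and not from the full lists. At each of the 13 regions that separated homozygous from wild type, at least 1 library of the other genotype had a weaker peak. With absence required in the full list, 0 of the 13 remained, and 0 did with the full lists used throughout. With the 100000 strongest peaks 5 remained and with the 20000 strongest 1, the site 9476 bp downstream of the ACKR1 start. When every library was given the same number of peaks per chromosome, 12 remained, and the region lost was the one at SPTB.

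Among the glycophorins and blood group antigens, the homozygous libraries had fewer strong peaks. The 9 genes together held 48, 44 and 52 peaks in wild type, 50, 41 and 50 in heterozygous and 34, 38 and 39 in homozygous libraries. The means were 48 ± 4, 47 ± 5.20 and 37 ± 2.65 (SD, n = 3 each), and each homozygous library lay below every other library. The homozygous mean was below the wild type mean at 8 of the 9 genes and equal to it at ERMAP. Over all genes tested, 6395 had a lower, 7553 a higher and 4258 an equal mean, and the median difference was 0 peaks against −1.33 in this group. The group also held more peaks per gene, with a median of 4.33 against 1.89 over all genes, so these differences are on unlike scales. With the 100000 strongest peaks the difference was −11.3 peaks, against −11 as counted first, with 50 to 59 in homozygous and 62 to 68 in all other libraries and 7 of the 9 genes lower. With the 20000 strongest it was −6, and the libraries overlapped (14 to 22 against 21 to 26). In the full lists, which differ in length between libraries, the sums were 88, 88 and 86 on average, with 4 genes lower and 4 higher. With equal numbers of peaks per chromosome the difference was −10.7 peaks, with 34 to 39 against 39 to 52.

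**Figure D3:**
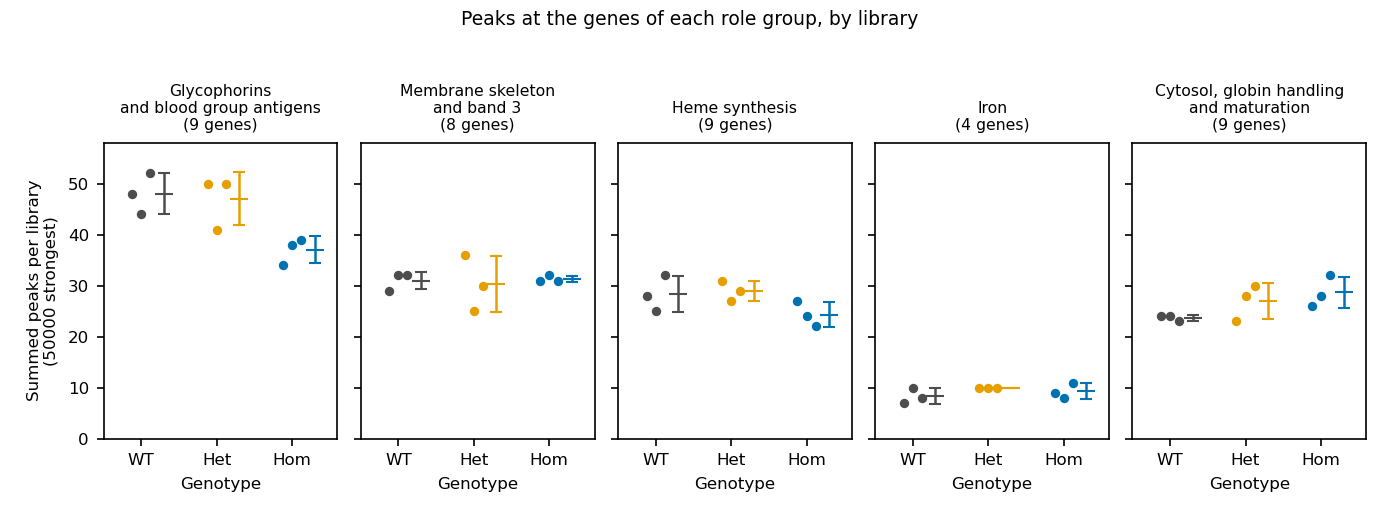
Summed peaks per library (vertical axis, among the 50000 strongest) at the genes of each of the 5 role groups, by genotype. Points are libraries, and the bar beside them gives the mean and SD of 3. The glycophorin and blood group panel shows the homozygous libraries at 34 to 39 peaks and the other 6 at 41 to 52, and the cytosol panel shows wild type at 23 or 24 and homozygous at 26 to 32, while in the other 3 panels wild type and homozygous libraries overlap.

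ACKR1 encodes the Duffy antigen, a receptor that binds chemokines without signalling through them. It held 5 peaks in each of the 3 wild type and 3 heterozygous libraries and 2, 2 and 4 in the homozygous (exact permutation p = 0.0357 unadjusted, adjusted 0.511). The homozygous libraries did not overlap the others. With the gene body alone the difference was 0.333 peaks in the other direction, so the peaks that differed lay outside the gene body. ACKR1 held, in the full lists, 6, 6 and 6 peaks in wild type, 5, 5 and 6 in heterozygous and 5, 5 and 8 in homozygous libraries, a difference of 0 with overlapping groups. One flanking region, chr1:159183850-159184431, intergenic and 9476 bp downstream of the start, had percentiles of 63.5, 70.2 and 74.3 in wild type and 58.9, 58.5 and 58.9 in heterozygous libraries. It was 0 in all 3 homozygous libraries, where homozygous replicate 3 alone listed a weaker peak, at rank 160568 of its full list (exact permutation p = 0.00357 unadjusted, adjusted 0.374). A second downstream region, chr1:159181219-159181804, stood at 11.7, 0 and 71.9 in wild type, 72, 85.8 and 0.918 in heterozygous and 0 in all homozygous libraries. Upstream, chr1:159167229-159168227 was present in all 9 libraries and ranked lower in the homozygous ones, with 82.7, 89.9 and 75.8 in wild type, 77.2, 97.6 and 94.6 in heterozygous and 37.7, 57.3 and 64.7 in homozygous libraries (exact permutation p = 0.0143 unadjusted). The ACKR1 promoter itself overlapped between the genotypes, with means of 32.9 ± 7.73, 26.0 ± 20.9 and 28.0 ± 26.6 (SD, n = 3 each).

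RHCE and RHD encode the Rh antigens and are near-identical neighbours, so reads of one can be placed in the other, and RHAG encodes the glycoprotein that brings both to the membrane. RHCE held 4, 4 and 4 peaks in wild type, 4, 3 and 4 in heterozygous and 2, 3 and 3 in homozygous libraries. Its region chr1:25693996-25695141, in an intron toward the end of the gene, had percentiles of 65.7, 51.1 and 54.9 in wild type and 50.6, 45.4 and 14.1 in heterozygous libraries and 0 in the homozygous (exact permutation p = 0.00357 unadjusted). In the full lists the homozygous libraries had it at ranks 123800, 177503 and 64713. RHD held 5, 5 and 7 peaks in wild type, 6, 4 and 5 in heterozygous and 5, 4 and 3 in homozygous libraries. In RHD introns 2 regions went opposite ways. The region chr1:25611451-25611980 had 43.4, 23.5 and 1.76 in wild type, 10.4, 0 and 0 in heterozygous and 0 in the homozygous libraries. The region chr1:25605374-25606982, on the other hand, had 39.5, 52.3 and 41.6 in wild type, 41.5, 58.2 and 64.2 in heterozygous and 71.7, 92.2 and 84.2 in homozygous libraries, the last above all others (exact permutation p = 0.0107 unadjusted). At RHAG the region chr6:49613291-49614765, 9476 bp upstream of the start, ranked in the top of every library, from 94.6 to 99.9, the highest lowest value of any member region.

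The glycophorins are heavily sialylated proteins of the red cell surface. GYPB and GYPE belong to a family of recent duplicates, and their reads can be misplaced between copies. GYPC, which ties the membrane to the skeleton, had the most peaks of this group, with 9, 9 and 8 in wild type, 7, 6 and 7 in heterozygous and 5, 8 and 9 in homozygous libraries, and the ranges overlapped. Its upstream region chr2:127408461-127409109, 4949 bp from the start, had 88.0, 82.1 and 11.9 in wild type, 0, 0 and 1.59 in heterozygous and 0 in homozygous libraries. The values of 88.0 and 82.1 belong to the wild type lists that share intervals. GYPB held 6, 6 and 8 peaks in wild type, 8, 6 and 8 in heterozygous and 5, 6 and 5 in homozygous libraries. A region in a GYPB intron, chr4:144937138-144937648, had 0, 11.5 and 40.0 in wild type, 37.3, 19.6 and 83.1 in heterozygous and 0 in homozygous libraries. Within 1 kb of a GYPB start, chr4:144939297-144939886 was present in all 9 libraries and lower in the homozygous ones, with 92.4, 87.0 and 91.8, then 90.5, 83.7 and 95.5, then 75.2, 40.9 and 65.2 (exact permutation p = 0.0321 unadjusted). At GYPE, 2 regions had an unadjusted exact permutation p of 0.0214 and 0.0464, both lower in homozygous libraries.

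KEL encodes the Kell antigen, an endopeptidase, and ERMAP the Scianna antigen. KEL held 5, 4 and 5 peaks in wild type, 5, 4 and 6 in heterozygous and 3, 3 and 4 in homozygous libraries. Its intronic region chr7:142651819-142652414 had 0, 0 and 17.7 in wild type, 26.1, 39.8 and 21.2 in heterozygous and 0 in homozygous libraries. The region chr7:142636605-142637548, downstream of KEL at the promoter of LLCFC1, had 14.0, 46.0 and 7.46, then 56.2, 38.2 and 68.0, and 0 in all homozygous libraries. The KEL promoter was strong in every library, from 88.2 to 99.5. ERMAP kept 3 peaks in 8 libraries and 4 in heterozygous replicate 3, while its promoter rose in rank: 49.1, 61.7 and 61.3 in wild type, 73.0, 71.3 and 90.6 in heterozygous and 95.9, 96.1 and 96.7 in homozygous libraries. These 3 groups did not overlap, and the heterozygous libraries lay between the others (exact permutation p = 0.00357 unadjusted, adjusted 0.296). The main region at that start, chr1:43282090-43283577, covers an ERMAP UTR and the overlapping gene SVBP, so the peak cannot be given to ERMAP alone.

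In the membrane skeleton and band 3 group, 8 genes together held 29, 32 and 32 peaks in wild type, 36, 25 and 30 in heterozygous and 31, 32 and 31 in homozygous libraries, without separation. The homozygous mean in the full lists was 105 peaks, against 86 in wild type. The libraries overlapped there as well, with 84 to 143 in homozygous and 62 to 93 in all other libraries. ANK1, which encodes ankyrin, had the most peaks of all members, with 6, 6 and 7 in wild type, 7, 8 and 9 in heterozygous and 8, 10 and 10 in homozygous libraries (exact permutation p = 0.05 unadjusted, adjusted 0.620). Its homozygous and wild type libraries did not overlap. Its strongest promoter, chr8:41654631-41656183, ranged from 54.6 to 89.4 over the 9 libraries. Within ANK1 introns, chr8:41649425-41650390 was at 54.1, 64.2 and 71.2 in wild type, 75.2, 74.8 and 77.0 in heterozygous and 81.3, 76.5 and 78.9 in homozygous libraries (exact permutation p = 0.00714 unadjusted). A further ANK1 intron region, chr8:41685531-41686701, went the other way, with means of 77.9 ± 7.21, 72.9 ± 5.81 and 53.5 ± 13.9 (SD, n = 3 each, exact permutation p = 0.0429 unadjusted).

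TMOD1 encodes tropomodulin, which caps the slow-growing ends of the short actin filaments of the skeleton. Its promoter, chr9:100263316-100264148, was at 15.3, 16.3 and 0 in wild type, 4.86, 0 and 0 in heterozygous and 87.1, 81.5 and 76.7 in homozygous libraries. The homozygous libraries stood far above the others (exact permutation p = 0.0143 unadjusted, adjusted 0.305). The number of TMOD1 peaks did not follow, with 4, 4 and 3, then 4, 2 and 3, then 2, 4 and 4. An intronic region 2028 bp from the start, chr9:100265306-100266646, was open in all 9 libraries, at 13.3 to 86.8, and the groups overlapped. Chromosome 9 as a whole took 3.34% of the strong peaks in wild type and 3.59% in homozygous libraries.

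EPB41 encodes the protein that strengthens the joint of spectrin and actin, and it has several start sites. One of them gained a strong peak: chr1:29213284-29213843 was at 0 in all 6 wild type and heterozygous libraries, which had it further down their full lists, and at 14.1, 42.7 and 51.5 in homozygous libraries (exact permutation p = 0.0357 unadjusted). Its other main promoter, chr1:29240470-29241924, was open in all 9 libraries, from 65.3 to 98.4. EPB41 held 8, 8 and 6 peaks in wild type, 7, 7 and 6 in heterozygous and 8, 9 and 8 in homozygous libraries. ADD2, for beta-adducin, and SPTB, for beta-spectrin, each lost a promoter region among the strong peaks. At ADD2, chr2:70944115-70945166 had 72, 29.1 and 56.9 in wild type, 45.7, 0 and 19.5 in heterozygous and 0 in homozygous libraries. At SPTB, chr14:65289834-65290431 had 3.56, 23.5 and 33.3 in wild type, 0, 42.7 and 43.7 in heterozygous and 0 in homozygous libraries. SPTB has a further promoter peak, and by its strongest one the gene stood at 33.7, 42.1 and 40.8 in wild type and 73.8, 37.3 and 80.3 in homozygous libraries, which overlap. For ADD2 the strongest promoter peak was at 72, 29.1 and 56.9, then 45.7, 80.6 and 25.3, then 0, 3.82 and 0 (exact permutation p = 0.0679 unadjusted).

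SLC4A1, the band 3 anion exchanger, had 2, 2 and 1 peaks in wild type, 1, 0 and 1 in heterozygous and 3, 0 and 1 in homozygous libraries, all of them distal. Its intronic region chr17:42343941-42344452, 1305 bp from the start, was at 65.7, 75.0 and 66.2 in wild type, 71.0, 0 and 0 in heterozygous and 1.40, 0 and 0 in homozygous libraries. The heterozygous replicate 1 value comes from the list that shares intervals with wild type replicate 3. This region was named after its values were seen (exact permutation p = 0.107). EPB42 had no peak among the 50000 strongest and 1 to 5 in the full lists. DMTN, for dematin, held 1 to 6 peaks per library, with the groups overlapping.

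**Figure D4:**
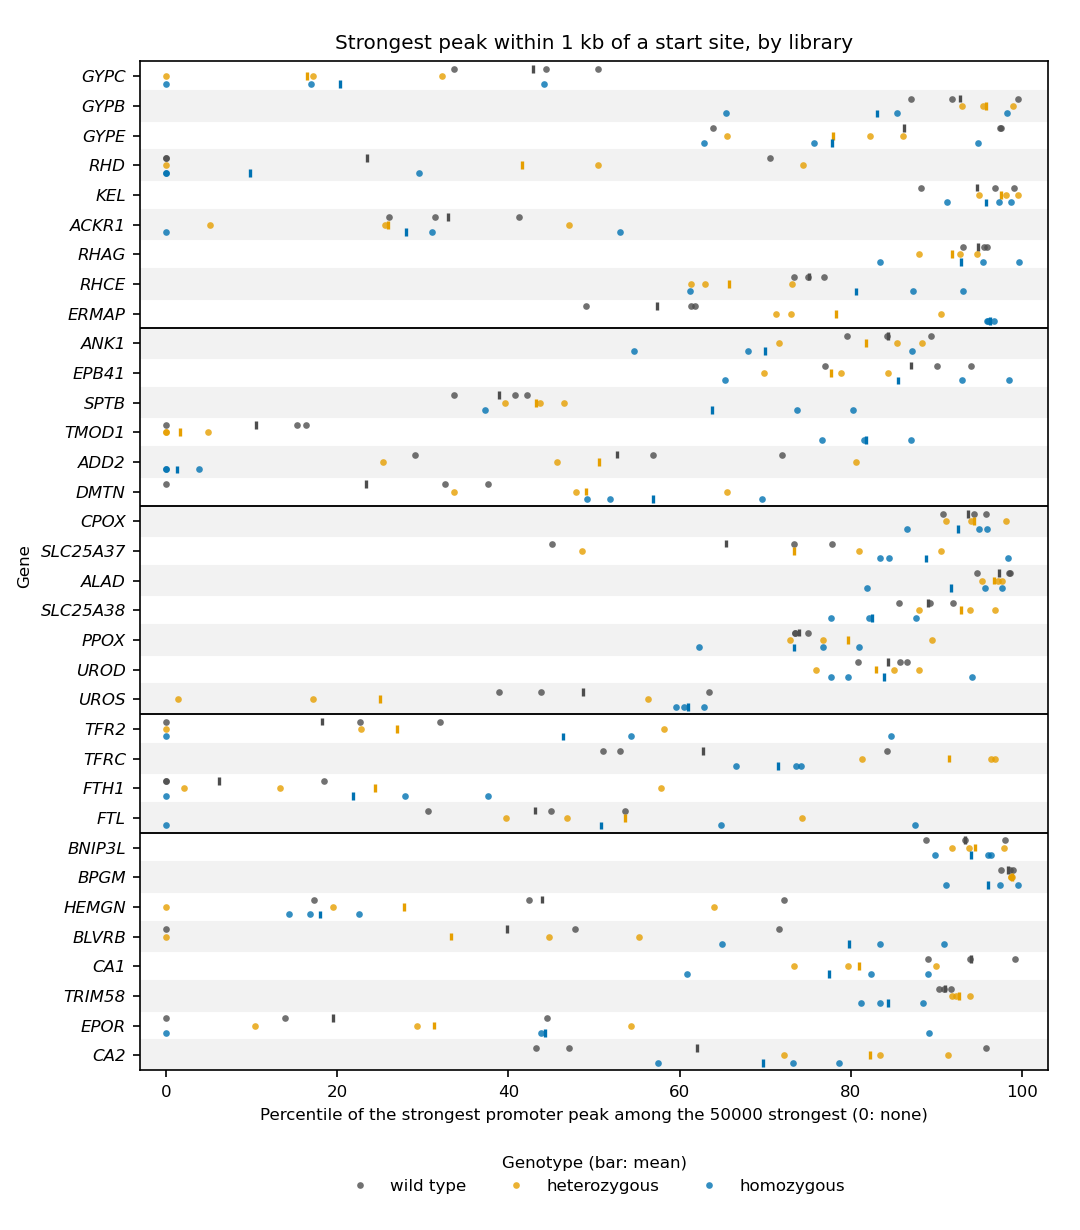
Percentile of the strongest peak within 1 kb of a start site (horizontal axis, 0 to 100, 0 for none among the 50000 strongest) for the 34 genes that had one in any library (vertical axis, by role). Points are libraries, coloured by genotype, and the short bar is the mean of 3. The homozygous points of TMOD1 (76.7 to 87.1) and ERMAP (95.9 to 96.7) lie above all others of their gene, and those of TRIM58 (81.2 to 88.4) lie below.

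The 9 genes of heme synthesis together held 28, 25 and 32 peaks in wild type, 31, 27 and 29 in heterozygous and 27, 24 and 22 in homozygous libraries, and the ranges overlapped. With the 100000 strongest peaks they did not overlap, with 30 to 35 in homozygous and 38 to 44 in all other libraries, and the difference between the homozygous and wild type means went from −4 to −8.67 peaks. ALAS2, the rate-limiting enzyme of the pathway in red cells, held 3 peaks in each of the 9 libraries and none at its promoter among the 50000 strongest. Its intronic region chrX:55040961-55042361 was at 77.4, 77.6 and 85.6 in wild type, 84.7, 66.7 and 74.6 in heterozygous and 72.1, 77.7 and 90.7 in homozygous libraries. A second intronic region, chrX:55054312-55054994, was at 91.8, 95.6 and 79.5, then 77.7, 86.2 and 82.4, then 49.9, 60.1 and 83.3 (exact permutation p = 0.1), and neither separated the genotypes. The third peak lay at the promoter of the neighbour APEX2, from 92.7 to 99.3.

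FECH encodes ferrochelatase, which puts iron into the finished ring. It held 2, 2 and 3 peaks in wild type, 3, 3 and 3 in heterozygous and 1, 1 and 1 in homozygous libraries, the last below all others (exact permutation p = 0.0143 unadjusted, adjusted 0.511). In the full lists the numbers were 6, 8 and 8, then 7, 5 and 7, then 6, 5 and 9, which overlap. The region that separated homozygous from wild type, chr18:55224987-55225577, was a weak one, at 3.56, 3.08 and 20.4 in wild type and 10.4, 0 and 6.81 in heterozygous libraries. Another intronic region, chr18:55250387-55251026, was open in all 9 libraries, from 57.2 to 92.2.

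CPOX, the enzyme that makes protoporphyrinogen, had the most peaks of the heme genes, with 4, 5 and 5 in wild type, 4, 5 and 4 in heterozygous and 4, 4 and 3 in homozygous libraries. Its upstream region chr3:98320819-98321345 was at 26.4, 37 and 36 in wild type, 10.4, 70.3 and 67.1 in heterozygous and 0 in homozygous libraries. In an exon, chr3:98304046-98304854 stood apart in the heterozygous libraries, with 84.2, 87.9 and 89.7 against 0, 35.5 and 51.0 in wild type and 46.9, 36.2 and 24.4 in homozygous libraries (exact permutation p = 0.0286 unadjusted).

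SLC25A38 imports the glycine that ALAS2 uses, and SLC25A37, mitoferrin, imports iron. SLC25A38 held 3, 3 and 4 peaks in wild type, 5, 3 and 4 in heterozygous and 2, 2 and 2 in homozygous libraries, the last below all others (exact permutation p = 0.0571 unadjusted). Its intronic region chr3:39430038-39430661 was at 67.7, 67.7 and 50.8 in wild type, 57.7, 0 and 43.7 in heterozygous and 0 in homozygous libraries, which had it at ranks 116045, 128397 and 91342 of their full lists (exact permutation p = 0.0286 unadjusted). Upstream, chr3:39419318-39420057 was at 0, 0 and 92.9 in wild type, 94.2, 0.582 and 62.8 in heterozygous and 0 in homozygous libraries. The values of 92.9 and 94.2 are those of the 2 lists that share most intervals. At SLC25A37 the intronic region chr8:23405150-23405767 was strong in every library and lower in the homozygous ones, with 96.8, 96.9 and 97.8 in wild type, 95.7, 93.8 and 94.8 in heterozygous and 80.6, 79.8 and 82.1 in homozygous libraries. The 3 genotypes did not overlap there (exact permutation p = 0.00357 unadjusted, adjusted 0.374). ALAD, UROS, UROD and PPOX, which encode enzymes between these steps, each had a promoter peak in all 9 libraries and no unadjusted p under 0.05 for either measure.

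The 4 iron genes together held 7 to 11 peaks per library, with means of 8.33 ± 1.53, 10 ± 0 and 9.33 ± 1.53 (SD, n = 3 each). TFR2, a transferrin receptor that senses iron, had the most, with 3, 4 and 2 in wild type, 2, 4 and 3 in heterozygous and 3, 3 and 5 in homozygous libraries. The strongest region in its window, chr7:100208972-100210682, is the promoter of MOSPD3, at 82.0, 71.3 and 70.1, then 83.0, 60.3 and 91.7, then 95.8, 95.5 and 96.9 (exact permutation p = 0.0964). TFRC, the receptor that brings in most iron, had a promoter peak in all 9 libraries, and FTH1 and FTL, for the ferritin chains, in 6 and 8. None of these genes had a region that separated a pair of genotypes.

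The cytosol, globin handling and maturation group held 24, 24 and 23 peaks in wild type, 23, 28 and 30 in heterozygous and 26, 28 and 32 in homozygous libraries. Wild type and homozygous libraries did not overlap, with means of 23.7 ± 0.577 and 28.7 ± 3.06 (SD, n = 3 each), and the heterozygous libraries overlapped both. In the full lists the difference turned, from 5 to −1 peaks. BNIP3L, a receptor for the removal of mitochondria, had the most, with 5, 5 and 6, then 6, 8 and 7, then 6, 5 and 7. Its promoter region chr8:26248475-26249023 was at 87.7 to 98.0 in all libraries. Its intronic region chr8:26295020-26295560 ranked lower in the homozygous libraries, with 93.9, 92.5 and 81.8 in wild type, 84.8, 74.4 and 86.9 in heterozygous and 73.8, 54.1 and 30.2 in homozygous libraries (exact permutation p = 0.0179 unadjusted, adjusted 0.374). CA1, a carbonic anhydrase, held 2, 2 and 2 peaks in wild type, 2, 3 and 4 in heterozygous and 3, 4 and 5 in homozygous libraries (exact permutation p = 0.0929). Its intronic region chr8:86266665-86267655 was at 0 in wild type, 0, 0 and 15.0 in heterozygous and 29.2, 21.3 and 7.55 in homozygous libraries. Upstream of CA1, chr8:86295202-86296272 was at 67.1, 52.2 and 31.1, then 34.7, 29.5 and 12.7, then 81.5, 60.5 and 75.3 (exact permutation p = 0.0179 unadjusted).

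TRIM58 encodes a ubiquitin ligase of late red cell maturation. Its promoter, chr1:248020132-248021746, covering an exon, was at 90.4, 90.9 and 91.8 in wild type, 92.3, 91.8 and 93.9 in heterozygous and 81.2, 88.4 and 83.4 in homozygous libraries, the last below all others (exact permutation p = 0.00357 unadjusted, adjusted 0.296). When promoters were taken as sites within 2.5 kb of a start site, the direction turned, to a difference of 1.99 percentile points. Downstream of TRIM58, chr1:248047792-248049201 was at 0 in all wild type libraries, 0, 0 and 24.2 in heterozygous and 75.2, 77.5 and 54.7 in homozygous libraries (exact permutation p = 0.0357 unadjusted), and the wild type lists had it at ranks 53942, 53607 and 117689. TRIM58 held 2, 2 and 2 peaks in wild type, 2, 2 and 3 in heterozygous and 3, 4 and 3 in homozygous libraries. At BPGM, an enzyme that sets the oxygen affinity of hemoglobin, the region chr7:134361051-134362324 was lowest in heterozygous libraries, with 18.9, 4.73 and 0 against 63.6, 64.6 and 63.9 in wild type and 35.6, 87.3 and 88.6 in homozygous libraries (exact permutation p = 0.0357 unadjusted). AHSP, the chaperone of free alpha-globin, had 1 peak in wild type replicate 3 and in heterozygous replicate 3 and none in the other libraries. CA2, HEMGN, EPOR and BLVRB held between 1 and 5 peaks per library and had no unadjusted p under 0.05 for either measure.

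Other genes of the same pathways were counted in the same way. Of 45 such genes, 0 passed after adjustment. Unadjusted exact p-values under 0.05 were found for the number of peaks at 5, with 2 higher and 3 lower in homozygous than wild type libraries, against the 7.94% of all genes. For the promoter percentile they were found at 7 of 41, with 4 higher and 3 lower, against 13.7%. The smallest p was at CLPX, for a mitochondrial unfoldase, with 45.1 ± 8.30 in wild type, 29 ± 5.31 in heterozygous and 78.7 ± 11.4 among homozygous libraries (SD, n = 3 each, exact permutation p = 0.00357 unadjusted). The promoter of SLC25A39, a mitochondrial carrier, went from a mean of 0 in wild type through 5.46 ± 9.46 in heterozygous to 33.8 ± 4.07 in homozygous libraries (SD, n = 3 each, exact permutation p = 0.0357 unadjusted). That of the glucose transporter gene SLC2A1 went from 28.7 ± 1.54 through 58.4 ± 5.06 to 83.8 ± 23.8 (SD, n = 3 each, exact permutation p = 0.00714 unadjusted), and SLC11A2, an iron transporter gene, was the other one higher. The 3 lower promoters were those of STEAP3, MPP1 and TPM3. STEAP3, a ferric reductase gene, had 91.1 ± 2.29, 87.3 ± 7.47 and 69.8 ± 6.94 (SD, n = 3 each, exact permutation p = 0.0143 unadjusted). MPP1 had 71.3 ± 12.0, 73.6 ± 12.1 and 43.4 ± 7.38 (SD, n = 3 each, exact permutation p = 0.0214 unadjusted). TPM3 was lowest in heterozygous libraries, with 77.5 ± 14.2, 45.5 ± 10.0 and 68.2 ± 14.6 (SD, n = 3 each, exact permutation p = 0.0464 unadjusted). Its homozygous and wild type libraries overlapped.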

How the data were processed

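ATAC-seq was run on 50000 cells per library and read as single ends of 100 bp, per the labels. Tools named in the submitters' processing notes are cutadapt, Bowtie2 2.2.9, Picard and MACS2 2.1.0, and builds hg19 and GRCh37; their roles and settings are not given in the sources used here. One peak list per library was deposited. The lists have no header, and read as narrowPeak columns the authors deposited a fold enrichment (a linear ratio), a −log10 p, a −log10 q, a score and a summit offset. The deposited −log10 p was used only to rank peaks within a list. Intervals longer than 500 bp made up 17.2% to 19.2% of each list, and how they were made is not given in the sources used here.

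Peaks on chromosomes 1 to 22 and X were ranked by −log10 p, the 50000 highest per library were kept, and those overlapping by 1 bp were merged into regions. Genes and 78513 start sites came from GENCODE 44 on GRCh37, where 0 intervals ran past a chromosome end. Genotypes were compared over all 9 libraries with exact two-sided permutation tests of the sum of squares between genotypes, fitted over all genes or regions and adjusted by Benjamini-Hochberg (python 3.11.15, numpy 2.4.6, scipy 1.17.1, pandas 2.3.3), and the scripts were tested on simulated data. Members given by library are those with a separating region, those with an unadjusted p under 0.05 for peak number or promoter percentile, and the one with the most peaks in each role group. Regions outside that rule, such as those at RHAG, SLC4A1, SLC25A37, BPGM, GYPE and the additional ones of named members, were chosen after their values were seen. Members and lists were chosen with earlier results of these data known. Alternatives were list length, summit position, gene body only, promoter distance, overlap, equal numbers per chromosome, absence in full lists, shared lists as 1 source, a replicate block and each library left out. Added after seeing the data were all alternatives for role group sums and for single regions, shared lists as 1 source for promoters, and the omission of the sharing lists. Libraries with the same replicate number were not more alike than others, and the tests over all 9 did not pair them.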

Additional observations from a re-analysis of the deposited data

How the results depend on the processing

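No gene or promoter passed after adjustment under any alternative run. All regions were counted under only 2 alternatives, the replicate block and shared lists as 1 source, and not at other list lengths. With the replicate block the counts were likewise 0 for peak number, promoter percentile and regions, where the smallest exact p possible was 0.0278. With shared lists as 1 source it was 0.0286. At such floors most genes or regions would have to reach the smallest p for any to pass. The counts of 0 from the block and from the sources were thus nearly fixed in advance. Unadjusted, the block left 1, 2 and 9 members or member regions under 0.05, against 2, 3 and 26. Same-numbered libraries correlated at −0.243 to 0.116 (mean −0.0292) and different-numbered ones at −0.220 to 0.343 (mean 0.0150). Same-numbered libraries were thus not more alike. The highest value was that of wild type replicate 3 and heterozygous replicate 1, which share most intervals.

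Directions turned in a few cases. The ACKR1 peak difference was 0.333 with the gene body only and 0 in full lists, against −2.33, and the TRIM58 promoter difference 1.99 at 2.5 kb. The BPGM region difference was −1.91 without homozygous replicate 2, −2.56 without replicate 3 and 23.9 without replicate 1. The CPOX exon region became −29.9 with shared lists as 1 source, which sets homozygous against all other lists, and −7.41 without wild type replicate 1. ERMAP ranged from 19.4 to 88.0 and TMOD1 from 27.1 to 77.2 percentile points, both always higher in homozygous libraries.

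The blood group difference of −11 peaks was −2 in full lists, −6 with 20000 peaks, −11.3 with 100000 and −5 in gene bodies, and −13 to −9 with 1 library left out. Member distal peaks differed by 12 in full lists, against −7.67, and promoter peaks by 7 with 20000 peaks, against −1; with 1 library left out they ranged from −11.2 to −3.67 and from −2.33 to 0.333. In full lists and with 100000 and 20000 peaks, the skeleton group differed by 19, 4.33 and 1.33 against 0.333, heme by −6.33, −8.67 and −1 against −4, iron by 0.667, −0.333 and 1.67 against 1, and cytosol by −1, 1.33 and 4.33 against 5.

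Counts of separating regions moved with the list length and with single libraries. Heterozygous against wild type gave 5 in full lists, 3 with 20000 peaks, 2 with 100000, 1 with equal numbers per chromosome, 0 to 15 with 1 library left out (12 without wild type replicate 3, 15 without heterozygous replicate 1) and 28 without both. Homozygous against heterozygous gave 20, 4 and 16 for those lengths against 9, 0 with absence from full lists, 9 to 18 with 1 left out (18 without heterozygous replicate 1, 15 without replicate 2) and 18 without the sharing pair. Homozygous against wild type gave 20 in full lists and 6 with 20000 peaks against 13, 0 with absence from full lists, and 13 to 20 with 1 left out (20 without homozygous replicate 2). The split of higher and lower moved from 3 and 10 to 9 and 11 in full lists for homozygous against wild type, and from 1 and 8 to 14 and 6 for homozygous against heterozygous. The causes were not tested. Read depth is unknown, which limits how far an absent peak can be read.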
